A study of Mus musculus with 4 samples.

Results

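The histone lysine methyltransferase and demethylase genes were taken as the protein-coding genes of GENCODE release M21 whose symbols begin with Kmt, Kdm, Setd, Nsd or Prdm followed by a digit. This rule gave 51 of 21911 protein-coding genes on the nuclear chromosomes. They were divided into 8 H3K4 methyltransferases, 7 H3K36 and H4K20 methyltransferases, 4 other SETD genes, 18 demethylases and 14 PRDM genes. The symbol chose the genes and no peak entered the rule, but the rule and the classes were set with earlier results of these data known. The classes follow names and families, and not all of the products methylate histones: Setd3 encodes a histidine methyltransferase of actin, and Kmt2e, placed with its KMT2 family, is known to lack H3K4 methyltransferase activity of its own.

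Sites of V5-tagged FOXR2 were mapped by CUT&RUN, in which an antibody directs a nuclease to cut chromatin around a tagged protein, in the neurosphere line Foxr2 p53LOF, with 2 replicates. The line, on the C57BL/6J strain, came from mouse tumors made by in utero electroporation of the ganglionic eminences with a CAG-driven, V5-tagged FOXR2 transgene and a guide RNA against Trp53. Expression was therefore driven by a strong general promoter rather than by the gene's own. The V5 control was also 2 replicates, from a separate electroporation model of the same strain that lacks the tag and has the genotype H3.3G34R. Tag and genotype differ together between the groups and cannot be told apart. All 4 libraries were cross-linked with 0.1% formaldehyde for 1 minute. No source used here says that replicates came from separate cultures, so the spread between them may be technical.

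Lysine methylation marks chromatin by position: methylated H3K4 is found at active promoters and enhancers, H3K36 methylation over transcribed gene bodies, and H3K9, H3K27 and some H4K20 methylation in repressed chromatin. Methyltransferases with a SET domain write these marks and demethylases remove them, through an amine oxidase or a Jumonji domain. PRDM proteins carry a SET-related PR domain with zinc fingers, and several act as sequence-specific regulators of cell fate rather than as general enzymes. FOXR2 is a forkhead protein.

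The Foxr2 p53LOF replicates held 31909 and 38580 called peaks, and the V5 control replicates held 308 and 124. After the study's filters, 13418 and 14864 Foxr2 p53LOF peaks were left. Stretches covered by filtered peaks of both replicates are called reproducible sites, and there were 11943 on assembled chromosomes. The fold of a peak is its fragments at the summit plus 1 over the background plus 1, with a single background for each library (1.263 and 2.0435 fragments in the Foxr2 p53LOF replicates), and the lower fold of a site is the smaller of its 2 replicate values. A fold over 6 needed 13 fragments in replicate 1 and 18 in replicate 2. A peak list gives no read total, so precision rests on the fragments at each summit, and their 95% exact Poisson intervals cover counting error only. No test between the groups was made on single genes, since 2 against 2 libraries cannot give a two-sided exact permutation p below 0.333.

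Genomic sequence at the strongest promoter sites is shown for 5 members, to let the differing base composition under tall peaks be seen. A promoter site is a reproducible site that overlaps the stretch within 1 kb of a protein-coding transcript start. Each run is 200 bases of GRCm38 (NCBI RefSeq, patch p6) around the mean of both replicate summits, on the strand of the member, 5′ to 3′. Capitals mark matches, on either strand, to CCGGAAGT (ETS), AAGATGGCG (YY1), GCATGCGC (NRF1), TGTTTAC (forkhead), GGGGCGGGG (SP and KLF), TGACGTCA (CREB), CACGTG (E-box) or AGCCAAT (NFY).
Setd5, chr6:113076575-113076774, plus strand: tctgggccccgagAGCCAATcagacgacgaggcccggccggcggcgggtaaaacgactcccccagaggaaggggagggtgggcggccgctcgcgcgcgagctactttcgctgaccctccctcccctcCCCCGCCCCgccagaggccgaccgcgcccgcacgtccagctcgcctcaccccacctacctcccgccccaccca
Kmt2e, chr5:23433111-23433310, plus strand: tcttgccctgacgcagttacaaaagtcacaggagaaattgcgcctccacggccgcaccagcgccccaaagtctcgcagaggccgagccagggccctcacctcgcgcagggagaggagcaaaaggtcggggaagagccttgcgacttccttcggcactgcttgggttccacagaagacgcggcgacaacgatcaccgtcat
Kdm3a, chr6:71633664-71633863, minus strand: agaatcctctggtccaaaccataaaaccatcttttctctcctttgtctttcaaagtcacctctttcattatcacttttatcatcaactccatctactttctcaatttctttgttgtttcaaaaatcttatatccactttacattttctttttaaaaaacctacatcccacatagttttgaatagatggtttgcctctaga
Kdm5a, chr6:120363827-120364026, plus strand: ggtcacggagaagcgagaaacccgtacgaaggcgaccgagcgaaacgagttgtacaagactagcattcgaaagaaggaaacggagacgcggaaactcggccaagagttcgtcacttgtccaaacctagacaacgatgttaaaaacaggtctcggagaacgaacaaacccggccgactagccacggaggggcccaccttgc
Kmt5a, chr5:124440005-124440204, plus strand: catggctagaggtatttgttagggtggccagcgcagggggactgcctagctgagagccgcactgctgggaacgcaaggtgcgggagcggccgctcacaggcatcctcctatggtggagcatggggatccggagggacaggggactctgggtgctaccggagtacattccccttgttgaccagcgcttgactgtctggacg
The Setd5 window, at 74.5% GC, held 1 match to the NFY letters and 1 to the SP and KLF letters, and the others held none of the 8 motifs. The Kdm3a window was AT-rich at 32% GC, against a median of 62.0% over 300-base windows at all 7807 promoter sites. The strongest PRDM window, at Prdm10, and that at Kdm4a hold 129 and 72 bases of annotated UTRs and are not printed, and the Kmt5a window holds 1 such base.

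In all, 37 of the 51 members had a promoter site, or 72.55%, against 39.2% of all protein-coding genes. All 8 H3K4 methyltransferases, all 7 H3K36 and H4K20 methyltransferases, 3 of 4 other SETD genes and 14 of 18 demethylases had one. Of the PRDM genes 5 of 14 did, or 35.71%, which is near the share of all genes. Outside the PRDM genes the count was 32 of 37, or 86.49%. These are descriptions, and no test of the list was made.

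**Figure D1:**
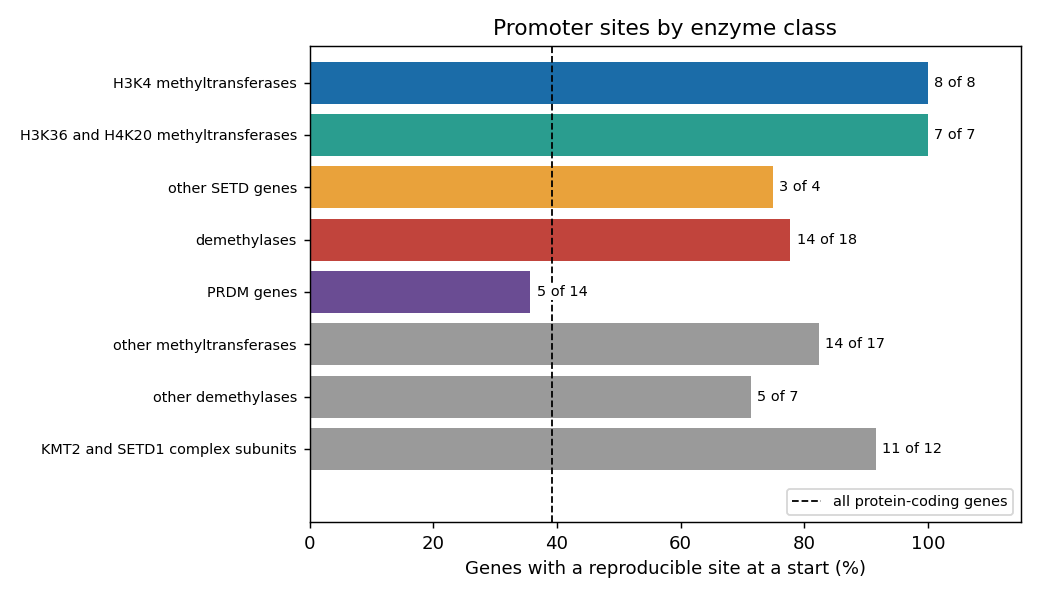
Share of genes with a reproducible site within 1 kb of a transcript start, in percent, for the 5 classes of members (colours) and 3 sets of companion genes (grey), with counts beside the bars. The dashed line is the share of all protein-coding genes, 39.2%, and the PRDM genes, at 35.71% (5 of 14), lie near it.

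Promoter composition and annotation differed between the members and other genes. A start was called CpG-rich where its 300 bases (250 before to 50 after) held at least 50% GC and an observed over expected CpG of at least 0.6, a split added after the peaks had been seen. Of the 51 members, 47 had such a start, against 51.51% of all genes, and 37 of these had a promoter site, against 66.1% of all genes with a CpG-rich start and 10.91% of the rest. Of 35 such genes outside the PRDM group 32 had one, and of 12 such PRDM genes 5 did. Members also had a median of 3 annotated protein-coding starts, against 2 over all genes, which gives more windows in which to find a site. The part of either in the counts was not tested.

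Without any filter, both replicates had a peak within 1 kb of a start at 43 members, against 51.3% of all genes. Among the PRDM genes 7 of 14 did, and among the others 36 of 37. Kdm5d, on the Y chromosome, was the exception.

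Over the wider gene region, the gene body with 10 kb on either side, 39 members had a reproducible site, against 50.0% of all genes. The members are long, with a median of 60384 bp against 17433 bp, so their regions offered more sequence. V5 control peaks were nearly missing from the same regions: 1 member (1.96%) had one, against 0.557% of all genes. That member was Setd2, the gene for H3K36 trimethylation, where control replicate 1 had a coding-exon peak at chr9:110549185-110549748 with a fold of 4.45. Control replicate 2 had none there, and the peak overlapped no Setd2 site.

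At the members with a promoter site, the lower fold of the strongest such site had a median of 11.8, against 10.2 over all 8588 genes with one. A lower fold above 10 was found at 23 of these 37 members, or 62.2%, against 50.3% of all such genes. Replicate 2 gave the higher fold at 32 of the members' 40 promoter sites, with a median ratio of replicate 2 to replicate 1 of 1.20. Over all promoter sites that ratio was 1.15 and replicate 2 was higher at 74.5%, so the shift was seen over all promoter sites as well.

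**Figure D2:**
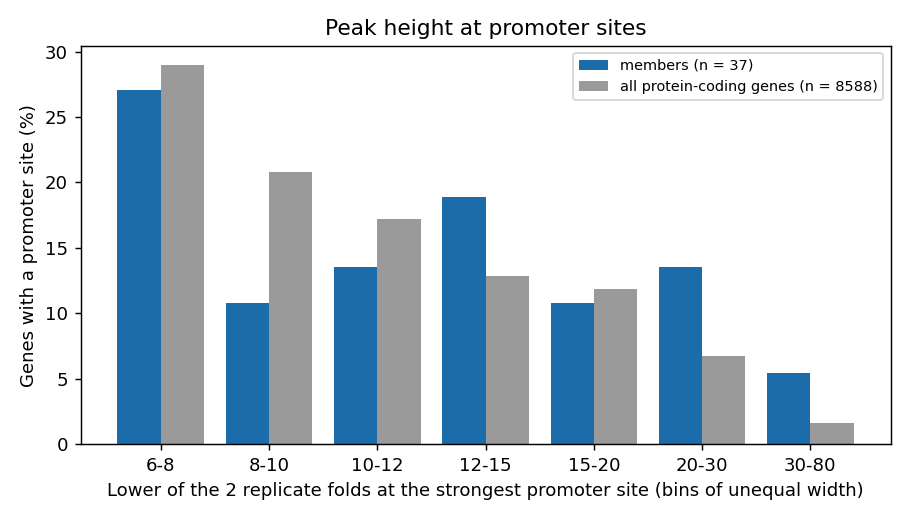
Percent of genes with a promoter site (vertical axis) by the lower of both replicate folds at the strongest site (horizontal axis, bins of unequal width), for the members (blue, n = 37) and all protein-coding genes (grey, n = 8588). The lowest bin holds 27.03% of the members and 28.98% of all such genes.

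The H3K4 methyltransferases all had a promoter site, with a median lower fold of 14.1. Kmt2e, which encodes MLL5, a SET protein that binds methylated H3K4, stood highest, at 31.4 in replicate 1 and 35.5 in replicate 2. These rest on 70 fragments (54.6 to 88.4) and 107 fragments (87.7 to 129). Its site, chr5:23430631-23436927, was 6297 bp long with a mean summit 1231 bp upstream of the nearest Kmt2e start and 99 bp from the start of the lincRNA 5031425E22Rik, so the peak lay nearer to the non-coding start. At Kmt2a, Kmt2b, Kmt2c, Kmt2d and Setd1b the mean summit was also nearer to the start of a gene not annotated as protein-coding, so at 6 of the 8 genes the fold cannot be given to the member's start alone. Over the members' 40 promoter sites, 10 had a mean summit nearer to a start of another gene, coding or not.

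Kmt2d, a monomethyltransferase of enhancers, had folds of 15.9 and 22.3. Its partner in that role, Kmt2c, had 17.2 and 13.1, the lowest ratio between replicates among the members' promoter sites, 0.763. Setd7, which also methylates other proteins, had 15.9 and 15.4. The order of these genes changed between the replicates.

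The catalytic subunits of the SET1 complexes, Setd1a and Setd1b, had folds of 14.1 and 15.8, and of 14.1 and 23.3. Kmt2b, a methyltransferase of promoters, had 13.7 and 16.1. Kmt2a, the counterpart of MLL, was the lowest of the class with 7.95 and 14.8. In replicate 2, Kmt2a stood above Kmt2c.

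Among the H3K36 and H4K20 methyltransferases, with a median lower fold of 11.5, Kmt5a stood highest. It encodes the H4K20 monomethyltransferase, and its folds were 20.3 and 20.7 at chr5:124438870-124441228, with summits 31 bp apart and a mean summit 174 bp past a start. A second site at another Kmt5a start had 7.95 and 7.56. Kmt5c, which trimethylates H4K20, differed most between replicates, with 11.05 and 23.3, a ratio of 2.11. The intervals of its fragments, 15.4 to 35.7 and 54.6 to 88.4, are not on 1 scale, since the libraries differ in background.

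Nsd1, Nsd2 and Nsd3, which dimethylate H3K36, had folds of 11.9 and 11.8, of 13.3 and 18.4, and of 11.5 and 15.4. The mean summit of the Nsd2 site lay 1125 bp upstream of the nearest start. Setd2 had 10.2 and 9.86. Kmt5b, which makes di- and trimethylated H4K20, had 9.72 and 9.20. No gene of the class had a lower fold under 9.20.

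Setd5, a SET domain gene mutated in intellectual disability, had the tallest promoter site of all members. Its folds were 34.02 and 48.0, from 76 fragments (59.9 to 95.1) and 145 fragments (122 to 171), and its lower fold exceeded 99.3% of all promoter sites. The site, chr6:113074673-113080133, was 5461 bp long and its replicate summits were 899 bp apart, so the mean summit printed above lies between separate maxima. The antisense start of Gt(ROSA)26Sor, the Rosa26 locus, was 503 bp from the mean summit and the nearest Setd5 start 691 bp, so the peak cannot be given to either alone.

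The remaining SETD genes ranged widely. Setd3 had folds of 16.8 and 22.0 at a site it shares with the start of Ccnk. The mean summit there lay 7 bp from the Ccnk start and 258 bp from the Setd3 start. Setd4 had 7.07 and 8.21. Setd6, a methyltransferase of non-histone proteins, had no reproducible site: its peaks over the start reached 5.74 and 6.90, and replicate 1 missed the minimum.

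Of the demethylases with a promoter site, the H3K9 demethylase Kdm3a was highest by its lower fold there, at 27.4 and 34.2. Both replicates put the summit on the same base, 773 bp upstream of the start in the AT-rich stretch printed above. Kdm4a, an H3K9 and H3K36 demethylase, had 25.6 and 43.7, and Kdm5a, an H3K4 demethylase, 25.6 and 33.5 at a site it shares with the start of Ccdc77. These 3 stood apart from most of their class, whose median lower fold was 10.4.

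Kdm8, a Jumonji gene, had folds of 22.5 and 19.1. Kdm7a, a demethylase of H3K9 and H3K27, had 13.7 and 18.7, and Kdm4b 13.7 and 16.4. The Kdm7a summits lay 1410 and 1442 bp past the start, so only the flank of that site reached the promoter window. The amine oxidase gene Kdm1b had 10.6 and 15.1 at a site shared with Tpmt, with a mean summit 7 bp from the Tpmt start and 163 bp from its own. Kdm2a, whose product binds CpG islands, had 3 promoter sites, the tallest with 10.2 and 12.5. The smaller pair of these lie at nearly the same start, share a replicate 2 peak and are not independent.

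The other demethylases lay near the minimum. Kdm2b had folds of 7.95 and 8.54, Kdm4c 7.95 and 7.56, Kdm4d 7.95 and 10.2 at a start shared with Cwc15, and Kdm3b 7.07 and 8.54. The Kdm4c mean summit lay 201 bp from the start of A230083N12Rik and 423 bp from that of Kdm4c. The Kdm3b summits lay 1753 bp apart, with their mean 1346 bp past the start. Kdm1a, the H3K4 demethylase LSD1, had 6.19 and 8.21, where replicate 1 rests on 13 fragments (6.92 to 22.2). Kdm5b had 6.19 and 7.23 at its promoter site. There the replicate 1 summit lay 1703 bp past the start, in an intron, and the summits were 1624 bp apart. A taller Kdm5b site 3270 bp upstream had 17.2 and 14.5.

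**Figure D3:**
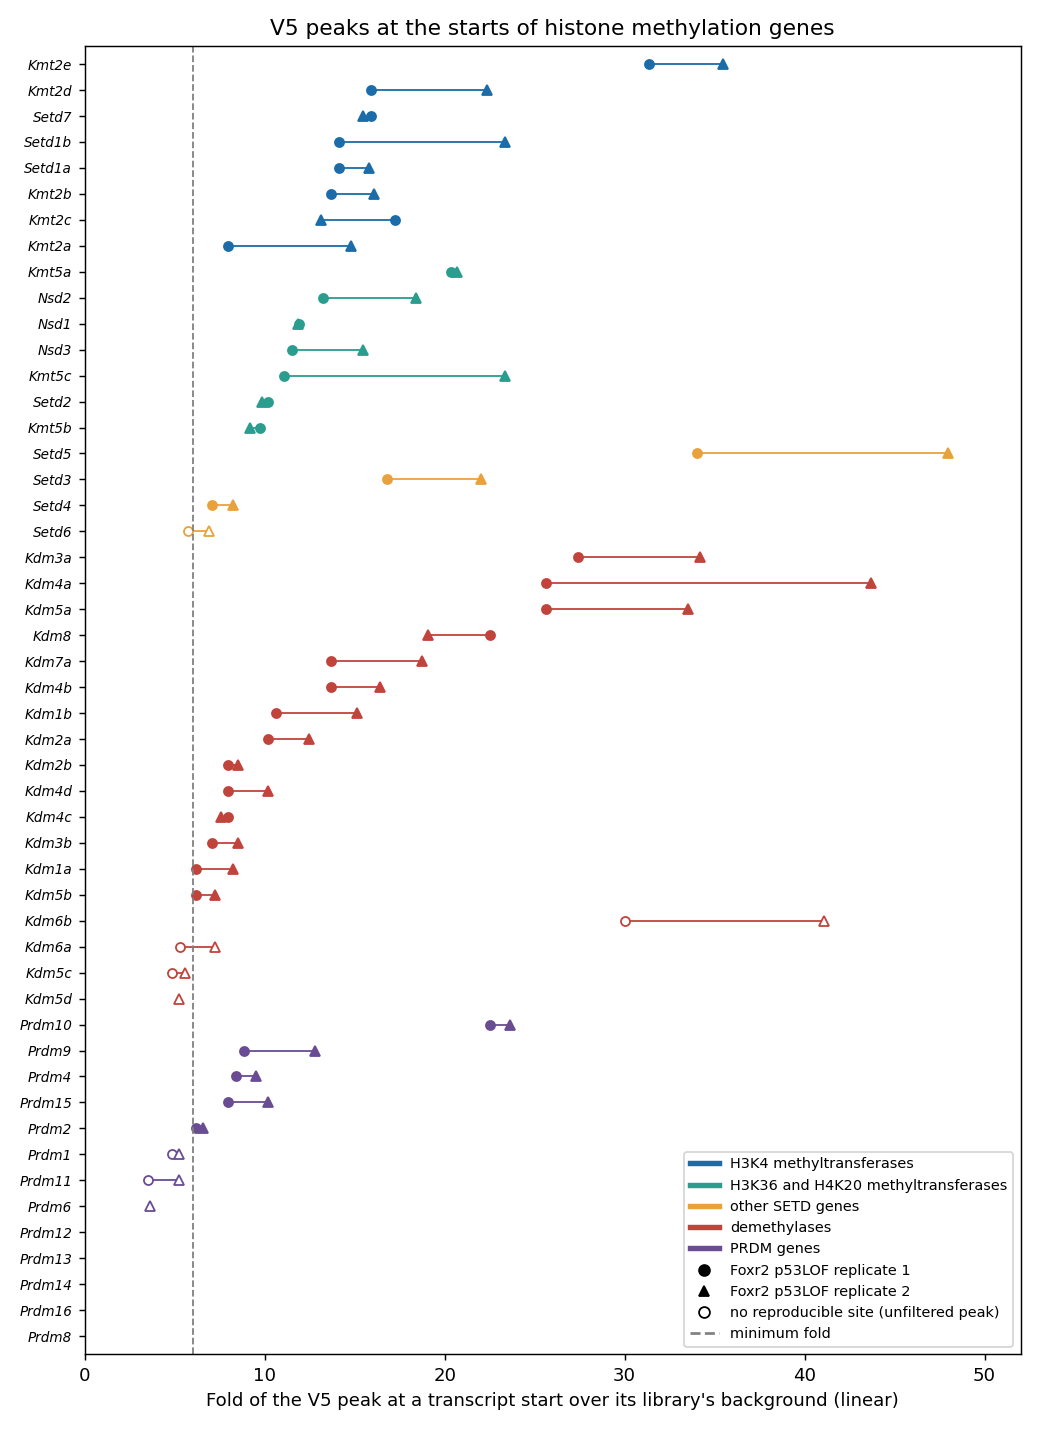
Fold of the V5 peak at a transcript start over its library's background (horizontal axis, linear) for 50 of the 51 members, grouped by class (colours), in Foxr2 p53LOF replicate 1 (circles) and 2 (triangles). Open symbols are unfiltered peaks at members with no reproducible promoter site, no symbol means no peak there, and the dashed line is the minimum fold of 6. A peak counts as at a start if any part of it lies within 1 kb. Setd5 is highest, and most open symbols lie near or left of the line except those of Kdm6b.

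Kdm6b, the H3K27 demethylase JMJD3, had no promoter site because of the length limit. The peaks over its start were 12591 bp and 13450 bp long, with folds of 30.05 and 41.1, and peaks of at least 10000 bp were dropped. Their summits lay 3837 bp inside and 4156 bp upstream of the nearest start, so the replicates did not share a maximum. Its only reproducible site, with 27.8 and 30.6, was downstream, at the starts of Cyb5d1, Naa38 and Tmem88.

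The 3 demethylases with no site in their region lie on the sex chromosomes. Kdm6a, the X-linked H3K27 demethylase UTX, had peaks of 5.30 and 7.23 at its start, and Kdm5c, X-linked, had 4.86 and 5.59. Kdm5d, Y-linked, had a peak of 5.26 in replicate 2 alone. Over all genes, 10.3% of those on X and 0 of 183 on Y had a promoter site, and what lies behind these low shares was not tested.

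Among the PRDM genes, Prdm10 stood apart with folds of 22.5 and 23.7 at a site 80 bp from its start, with summits 24 bp apart. Prdm9, which places meiotic recombination sites, had 8.84 and 12.8, Prdm4 had 8.39 and 9.53, and Prdm15 had 7.95 and 10.2. Prdm2, an H3K9 methyltransferase, had 6.19 and 6.57. Prdm10 was the one member of the class with a lower fold above 10.

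The PRDM genes without a promoter site had weak peaks at their starts or none. Prdm12, a regulator of nociceptive neurons, and Prdm14, of pluripotency and germ cells, had no peak of any library in their regions. Prdm1, BLIMP1, had peaks of 4.86 and 5.26 at a start, and Prdm11 of 3.53 and 5.26. Prdm6 had a start peak of 3.61 in replicate 2 alone.

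Prdm13, a regulator of inhibitory neuron fate, and Prdm8, of neurons, had peaks of both replicates inside a coding exon rather than at a start. Those of Prdm13 were 8.84 and 5.59, so replicate 2 fell short of the minimum, and those of Prdm8 were 3.53 and 4.599. Prdm16, a regulator of brown fat and neural stem cells, had 2 intronic sites, at 6.19 and 6.90 and at 6.19 and 12.8, that share the same replicate 1 peak. No peak lay within 1 kb of a Prdm16 start.

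In all, 63 reproducible sites lay in the regions of the members. Of these, 40 were promoter sites of the member, 15 were within 1 kb of another protein-coding gene's start and 8 were near neither. That is 1.24 sites per member, against 0.771 per gene over all protein-coding genes, whose regions are shorter as given above. The median lower fold was 11.3 at the promoter sites, 11.05 at the starts of other genes and 7.58 at the last 8. The promoter sites had a median length of 2298 bp, against 1869 bp for all promoter sites, and 4 of the 40 lay within 1 kb of another protein-coding gene's start, or 10%, against 14.5% of all. Non-coding starts, such as those beside Kmt2e and Setd5, are not in that count.

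**Figure D4:**
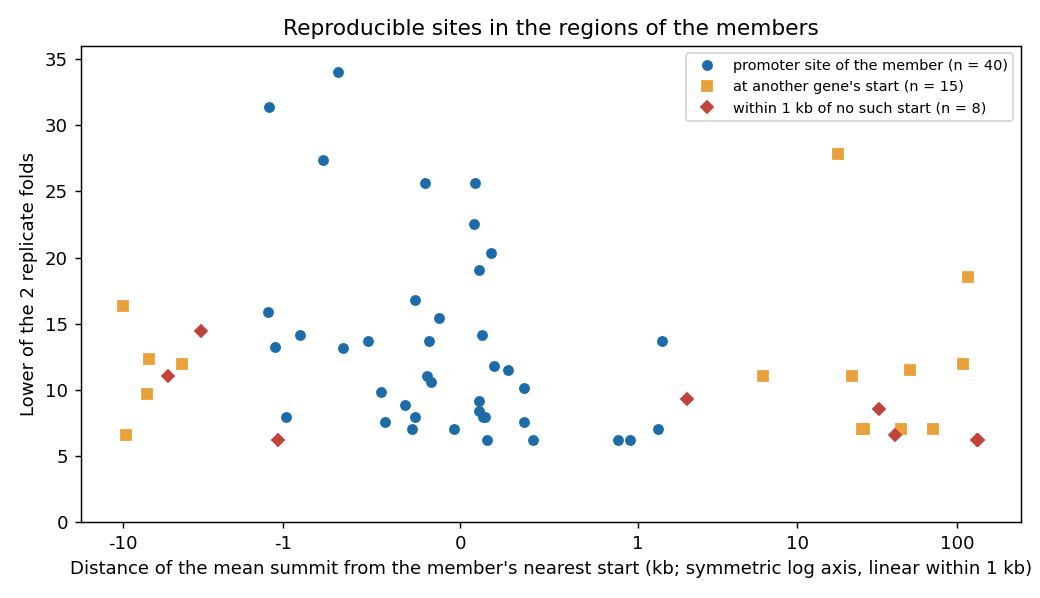
Lower of both replicate folds (vertical axis) of the 63 reproducible sites in the members' regions against the distance of the mean summit from the member's nearest start (horizontal axis in kb, symmetric log, linear within 1 kb). Circles are the 40 promoter sites, squares the 15 at another protein-coding gene's start and diamonds the 8 near neither. The squares include the Kdm6b site at 27.8, and for 1 site each of Setd1a, Prdm16, Kdm2a, Kdm5b and Setd5 the mean summit lies outside the site.

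The most sites in a region were 3, reached by 8 of the 51 members: Nsd1, Nsd3, Kmt2b, Kmt2d, Setd1a, Kdm2a, Kdm4a and Setd5. No share of all genes with 3 sites is given here. The mean was 1.24 sites per member against 0.771 per protein-coding gene, whose regions are shorter. Most of the added sites belong to neighbours. Both added sites of Nsd1 lie at the starts of Prelid1 and Rab24 and of Mxd3, with folds of 11.9 and 17.7 and of 18.6 and 23.3. Those of Kmt2d lie at Prkag1 and at Rhebl1, with 11.05 and 13.5 and with 16.3 and 24.6, the latter taller than at the Kmt2d start.

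Setd5, Setd1a and Kdm4a also had sites near no other start. A second Setd5 site, in an intron, had 9.28 in replicate 1, but its replicate 2 value of 48.0 belongs to the peak already counted at the start. Another, also intronic, had 11.05 and 15.8. For Setd1a, an upstream site at chr7:127773934-127774735 had 6.19 in replicate 1 and shares its replicate 2 peak with the promoter site. The Kdm4a site, in an intron, had 6.63 and 8.21.

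Motif letters were no more than sparse in the 300-base windows at the members' 40 promoter sites. The ETS letters were in 2 (5%), against 4.53% of all promoter sites, and the forkhead letters in 2 (5%), at Kdm3b and Prdm2, against 2.23%. The Kdm3b replicate summits lay 1753 bp apart, and its window holds neither of them. The SP and KLF letters were in 6 (15%) against 12.4%, the NFY letters in 4 (10%) against 5.21%, and the E-box in 4 (10%) against 10.5%. The YY1 and NRF1 letters were in 1 each (2.5%), against 3.15% and 3.11%, and the CREB letters in 0 against 1.73%. Each of these shares of the members rests on 0 to 6 windows. Median GC content of the windows was 62.2%, against 62.0% over all promoter sites. Replicate summits were within 100 bp of each other at 25 of the 40 sites. Where they lay more than 300 bp apart, the window holds neither summit, so a match there is not at a maximum.

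Other genes of the same pathways, outside the symbol rule, were counted in the same way. Against 39.2% of all genes, promoter sites were found at 14 of 17 other methyltransferases, 5 of 7 other demethylases and 11 of 12 subunits of the KMT2 and SETD1 complexes. By the lower fold, the highest were Hcfc1, a subunit of those complexes, with 19.9 and 28.3, Ezh2, the H3K27 methyltransferase of Polycomb, with 17.7 and 21.4, and Ash1l, an H3K36 methyltransferase, with 17.2 and 18.1. Hcfc1, Suv39h1 (6.63 and 6.57) and Phf8 (7.07 and 13.1) are X-linked, like Kdm5c and Kdm6a, which had no site. No site at a start was found for Dot1l, Smyd1, Mecom, Uty, Riox2 or Ncoa6.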

How the data were processed

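The members, classes and companion lists were chosen with earlier results of these data known. Reads had been run by the authors through GenPipes (its ChIP-seq workflow), with, per the submitters' processing notes, Trimmomatic 0.39, BWA 0.7.17 (mm10), Picard 2.26.6 and MACS2 2.2.7.1, library by library. The deposited lists give each peak a fold ratio over background, a −log10 p, a −log10 q, a score and the summit offset, all made by the authors with MACS2. The deposited score was not used beyond a check of its unit.

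Peaks of the Foxr2 p53LOF replicates were kept with a fold over 6, a −log10 q over 6 and a length under 10000 bp, and without an overlap of 10 bp or more with a V5 control peak. Reproducible sites are stretches covered, by at least 1 bp, by kept peaks of both replicates. Where several peaks of a replicate cover a site, the tallest gives its fold. Fragments at a summit were recovered from the folds by a search for each library's background between 0.3 and 4 in steps of 0.0005, over folds up to 30, with a tolerance of 0.02 for whole numbers. A single background per library fitted the folds, so they are not corrected for the surroundings of each peak. Scripts (Python 3.11.15, pandas 2.3.3, pysam 0.24.0) were tested on simulated data.

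Members were named by class, except 1 that is counted but not reported here, with values for the tallest promoter sites, the top of each class, members with the most sites, and those with none or with a peak lost to a filter. Open chromatin peaks, which the study also used to filter sites, were not used here. Alternatives were stricter or looser filters, other windows, and leaving out each library.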

Additional observations from a re-analysis of the deposited data

Results flagged for a closer look

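Kdm6b was the member with a strong signal outside the filtered sites. The peaks over its start were left out by the length limit, with folds of 30.05 in Foxr2 p53LOF replicate 1 and 41.07 in replicate 2, while neither V5 control replicate had a peak in the region. No other member lost a peak to the length limit.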

How the results depend on the processing

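Settings were changed one at a time, except that 1 alternative dropped the minimums on fold and −log10 q together. The count of members with a site in the gene region stayed within 1.5 times its value under all 13 alternatives, from 26 (with 27.8% of all genes) to 47 (with 62.3%), so the share of all genes moved too. The number with a promoter site did so under 13 of 14, the exception being a minimum fold of 10, which left 23, with 19.7% of all genes. The PRDM count fell to 1 under that minimum. The number of sites in the regions became 34 with it, 106 with no minimum on fold or −log10 q, and 121 with 50 kb on either side. The 1 member with a V5 control peak was 1 with 50 kb too. Without the length limit Kdm6b gained a promoter site, and without a minimum fold Setd6 did. Leaving out a Foxr2 p53LOF or control replicate in turn gave 39 to 42 members with a site in the region, with 50.0% to 55.1% of all genes. With a promoter site there were 37 to 40 members, 5 to 6 of them PRDM genes, with 39.2% to 43.5% of all genes. The regions held 63 to 72 sites. The median lower fold was 11.8 to 14.9, the highest without Foxr2 p53LOF replicate 1. Where a replicate is left out, sites rest on the other one alone. No paired analysis was possible because the results are counts and medians from peak lists, with no test between groups. Fragments at the summit limit folds near the minimum.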
